A study of Mus musculus with 20 samples.

Results

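The interferon-stimulated genes are a set of 39 genes, taken from a list of symbols, out of 49671 gene IDs counted in mouse hematopoietic stem cells (HSCs). All 39 matched 1 gene ID each, and all 39 passed the filter on low counts. The study compared HSCs that lack Kdm6b, a demethylase of lysine 27 on histone H3, with controls. Control mice were Vav-CRE with wild-type Kdm6b, Kdm6b-KO mice were Vav-CRE with Kdm6b fl/fl, and so both groups carried the Cre driver; the strain was C57BL/6 and the age 8 weeks. Vav-CRE is active throughout the blood system, so the deletion is not limited to HSCs. RNA was sequenced from 3 Control and 3 Kdm6b-KO samples, each pooling marrow HSCs of 3 male with those of 3 female mice and labelled a biological replicate. ATAC-seq, in which a transposase cuts accessible DNA, covered 3 libraries titled Control and 3 titled 6bKO, each from 10000 HSCs. The genotype label of all 6 ATAC libraries reads wild-type, so their groups come from the titles alone. The other 8 of the 20 samples were not analysed here.

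Type I interferons bind a receptor whose kinases phosphorylate STAT2, which joins IRF9 and acts at interferon-stimulated response elements in target promoters. The induced genes encode sensors of foreign nucleic acid, enzymes that degrade or modify viral RNA, proteins that block viral entry or release, and parts of the antigen-processing machinery. Many are transcribed at a basal level without infection. In mouse HSCs, interferon alpha is known to push dormant cells into the cell cycle, and stem cells are known to keep some of these genes on as intrinsic protection.

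Assigned gene counts ranged from 6793873 to 13797890 in Control and from 8683106 to 19336121 in Kdm6b-KO, so that 3 counts equalled 0.148 to 0.461 CPM (counts scaled to 1e6 per library after TMM scaling). Kdm6b itself, at 92, 283 and 221 CPM over Control libraries and 143, 202 and 191 CPM over Kdm6b-KO libraries, overlapped between the groups (log2 fold change -0.15, adjusted p = 0.882 by edgeR); counts over the whole gene can hold exons beyond the floxed ones and so do not check the labels. The summed level of 10 HSC markers was 4251 to 6678 CPM in Control and 4807 to 5056 CPM in Kdm6b-KO. Of the lists for other cell types, the 10 neutrophil genes summed to 1181 to 3650 CPM in Control, to 4304 CPM in Kdm6b-KO replicate 1 and to 194 and 192 CPM in replicates 2 and 3. The 8 erythroid genes summed to 8252 to 11150 CPM in Control and 4504 to 5662 CPM in Kdm6b-KO, with no overlap. Monocyte and macrophage genes (8) summed to 77.8 to 95.1 and 50.0 to 114 CPM, and 6 plasmacytoid dendritic cell genes to 217 to 281 and 185 to 274 CPM, with Cd209d and Klk1 at 0 counts. The 7 T and NK cell genes summed to 96.2 to 185 and 60.4 to 131 CPM and the 6 B cell genes to 71.2 to 104 and 77.4 to 102 CPM. No gene of these lists was called, and the part of other cells in the results below was not tested. In sorted populations, fewer cells of a type and less RNA per cell cannot be told apart.

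The promoter windows of these genes were searched for the core of the interferon-stimulated response element, that is GAAA, any 2 bases and GAAA again, on both strands and counting overlapping matches. RefSeq windows on GRCm38.p6, from 250 bases before to 50 bases after each annotated start, were at hand for 29 of the 39 genes. The motif lay in a window of 12 of these 29 genes (41.4%) and of 1079 of all 27025 genes with a window (3.99%). The longer form, in which a C follows, was found for 10 of 29 genes and for 0.944% of all genes. A match describes the sequence and does not show binding. The windows of the 2 genes that fell in Kdm6b-KO and of the 4 motif-bearing genes with the lowest unadjusted p are shown, each read along its gene's strand, with the motif in capitals. A match on the opposite strand appears as its reverse complement, TTTC, 2 bases and TTTC.
Xaf1 (chr11:72301379-72301678, plus strand), which holds no match: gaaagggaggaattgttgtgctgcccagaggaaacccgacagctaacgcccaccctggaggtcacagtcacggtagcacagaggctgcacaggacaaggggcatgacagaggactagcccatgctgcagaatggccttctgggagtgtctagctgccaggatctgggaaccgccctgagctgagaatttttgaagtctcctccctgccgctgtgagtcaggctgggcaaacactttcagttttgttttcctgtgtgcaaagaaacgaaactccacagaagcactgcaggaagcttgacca
Ifit1bl1, first annotated start (chr19:34601919-34602218, minus strand): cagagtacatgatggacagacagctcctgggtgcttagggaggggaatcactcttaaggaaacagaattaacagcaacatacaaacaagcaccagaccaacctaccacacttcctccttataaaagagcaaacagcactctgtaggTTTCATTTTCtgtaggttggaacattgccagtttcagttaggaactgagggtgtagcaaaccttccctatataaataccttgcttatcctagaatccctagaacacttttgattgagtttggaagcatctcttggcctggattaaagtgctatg
Ifit1bl1, other annotated start (chr19:34599378-34599677, minus strand): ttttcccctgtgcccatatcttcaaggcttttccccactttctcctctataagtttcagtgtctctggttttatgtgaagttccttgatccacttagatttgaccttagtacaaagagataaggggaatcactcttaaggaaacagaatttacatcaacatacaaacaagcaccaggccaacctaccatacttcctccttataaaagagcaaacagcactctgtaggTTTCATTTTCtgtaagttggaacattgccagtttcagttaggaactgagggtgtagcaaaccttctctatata
Rsad2 (chr12:26456403-26456702, minus strand): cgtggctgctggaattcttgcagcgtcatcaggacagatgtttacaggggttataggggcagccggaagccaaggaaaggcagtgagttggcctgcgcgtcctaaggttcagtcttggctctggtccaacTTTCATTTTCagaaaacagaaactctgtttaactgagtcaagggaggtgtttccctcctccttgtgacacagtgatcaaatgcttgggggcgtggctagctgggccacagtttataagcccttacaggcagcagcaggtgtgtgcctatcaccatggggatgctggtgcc
Bst2 (chr8:71537423-71537722, minus strand): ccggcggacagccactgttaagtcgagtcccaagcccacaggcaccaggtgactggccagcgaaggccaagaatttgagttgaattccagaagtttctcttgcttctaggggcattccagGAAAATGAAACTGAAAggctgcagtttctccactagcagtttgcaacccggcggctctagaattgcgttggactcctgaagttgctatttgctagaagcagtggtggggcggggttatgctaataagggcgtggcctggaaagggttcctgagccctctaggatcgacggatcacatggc
Ifit3 (chr19:34583279-34583578, plus strand): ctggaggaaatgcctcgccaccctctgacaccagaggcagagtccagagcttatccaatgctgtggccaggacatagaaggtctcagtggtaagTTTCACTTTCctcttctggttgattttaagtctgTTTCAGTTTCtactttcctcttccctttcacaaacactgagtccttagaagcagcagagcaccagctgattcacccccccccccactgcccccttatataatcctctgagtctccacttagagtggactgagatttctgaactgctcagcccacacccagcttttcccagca
Ifit1 (chr19:34640639-34640938, plus strand): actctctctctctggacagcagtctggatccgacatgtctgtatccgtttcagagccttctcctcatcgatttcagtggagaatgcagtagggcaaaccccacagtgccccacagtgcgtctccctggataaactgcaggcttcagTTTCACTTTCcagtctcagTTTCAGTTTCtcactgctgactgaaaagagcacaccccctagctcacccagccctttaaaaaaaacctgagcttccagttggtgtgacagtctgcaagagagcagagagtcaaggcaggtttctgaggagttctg

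For the other 7 motif-bearing genes, 1 match each and its flanks are given on the strand that reads GAAA to show where the matches lie. The capitals are alike because the search required them.
Isg15, 72 bases upstream of the start and the middle of 3 overlapping matches: aggaaaagGAAACCGAAAcagaaaat
Oas1a, 14 bases upstream: gggaaatgGAAACTGAAAatctactt
Oas3, 75 bases upstream: agggaggaGAAAACGAAAgtgaaggg
Stat2, 222 bases upstream: agggaaagGAAACTGAAAccagggtg
Eif2ak2, 18 bases downstream: tccgccggGAAAACGAAAcagaagag
Ifitm3, 19 bases downstream: acttctgaGAAACCGAAActgccgca
Ifih1, 32 bases downstream: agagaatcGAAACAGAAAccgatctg
In 9 of the 12 genes the matches began upstream of the start, between 14 and 222 bases from it. In Ifih1, Eif2ak2 and Ifitm3 they began 2 to 32 bases downstream. Bst2, Oas1a and Isg15 carried overlapping matches 6 bases apart.

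Between Kdm6b-KO and Control HSCs, 2 of the 39 interferon-stimulated genes fell and none rose, at an adjusted p under 0.05 in the quasi-likelihood test of edgeR. That is 5.13% of the set, against 0.461% of all 15185 tested genes called in either direction, 0.217% lower and 0.244% higher. The members were chosen with earlier results of these data known, so this share and those that follow are no independent support. The genes that fell were Xaf1 and Ifit1bl1. At an unadjusted p under 0.05, 6 members were lower and 2 higher, which is 15.4% and 5.13% of the set, against 7.22% and 7.63% of all tested genes (8 members and 20.5% in either direction, against 14.8%). The libraries of the 2 groups did not overlap for 13 members, 9 lower and 4 higher, that is 23.1% and 10.3% against 9.49% and 11.0% of all genes (33.3% against 20.5% in either direction). Of the 39 log2 fold changes, 26 were negative and 13 positive, with a median of -0.15 beside -0.0012 over all genes. Scaled by library totals, which moved the median of all genes to 0.147, the median of the members was -0.0050.

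**Figure D1:**
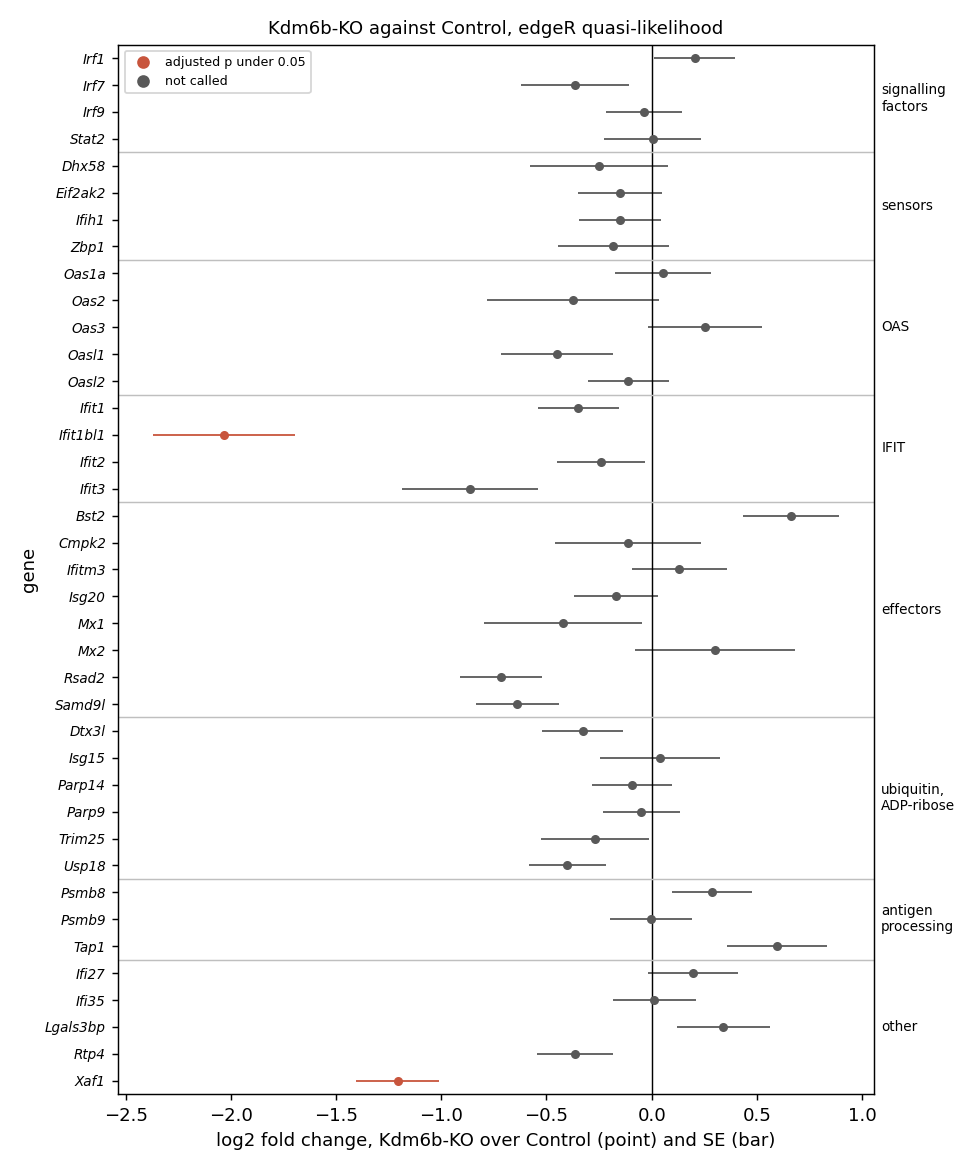
Log2 fold change of Kdm6b-KO over Control for each of the 39 interferon-stimulated genes (points) with its SE (bars), grouped by role. Xaf1 at -1.21 and Ifit1bl1 at -2.03 are the called genes, and the others lie between -0.86 and 0.66.

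Xaf1 encodes a zinc finger protein that antagonises the apoptosis inhibitor XIAP and is strongly induced by interferon. It lies on chromosome 11 (72301461 to 72313733, GRCm38), 2.90 Mb from Kdm6b. Its level was 75.4, 64.8 and 69.1 CPM over Control libraries and 30.7, 32.8 and 27.2 CPM over Kdm6b-KO libraries. The 3 Control values were all above the 3 Kdm6b-KO values, and each group was tight. The mean fell 2.31-fold, from 69.8 ± 5.34 CPM to 30.2 ± 2.82 CPM (SD, n = 3 each; log2 fold change -1.21, SE 0.20, adjusted p = 0.00840 by edgeR). Without Kdm6b-KO replicate 2 or 3 the adjusted p was 0.0700 and 0.104, at log2 fold changes of -1.27 and -1.14, and it ranged from 5.28e-06 to 0.104 over 13 alternatives. Of the 1110 tested genes on chromosome 11, 27 were called (2.43%), so the share of called genes on that chromosome was itself above that of the genome. The other 5 members on chromosome 11 were not called. Irf1 at 15.6 Mb from Kdm6b had a log2 fold change of 0.21, Trim25 at 19.6 Mb -0.27, Dhx58 at 31.3 Mb -0.25, Ifi35 at 32.0 Mb 0.01 and Lgals3bp at 49 Mb 0.34.

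Ifit1bl1 belongs to the IFIT genes, tetratricopeptide repeat proteins that bind viral RNA, which lie together on chromosome 19. Its level was 14.7, 19.6 and 13.8 CPM over Control libraries and 4.98, 2.51 and 4.16 CPM over Kdm6b-KO libraries. All Control libraries were well above all Kdm6b-KO libraries, and Kdm6b-KO replicate 2 was lowest with 23 counts. The mean fell 4.13-fold, from 16 ± 3.09 CPM to 3.88 ± 1.26 CPM (SD, n = 3 each; log2 fold change -2.03, SE 0.34, adjusted p = 0.0116 by edgeR). The adjusted p was 0.0514 without Control replicate 2, 0.107 without Kdm6b-KO replicate 2 and 0.109 without Kdm6b-KO replicate 3, and over 13 alternatives it ranged from 5.77e-06 to 0.109. The annotated span of Ifit1bl1 (34592888 to 34662981) overlaps Ifit1, Ifit3b, Ifit1bl2 and Cnn2-ps. Reads from the near-identical or overlapping genes may have been split between them or dropped, so the size of this value is uncertain.

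The other IFIT genes had negative log2 fold changes and were not called. Ifit3 had 10.8, 13.1 and 7.82 CPM over Control libraries and 5.33, 5.88 and 6.08 CPM over Kdm6b-KO libraries, with no overlap between the groups (log2 fold change -0.86, SE 0.32, adjusted p = 0.242 by edgeR). Ifit1, which binds capped viral RNA, had 66.7, 69.9 and 64.7 CPM over Control libraries and 62.3, 50.6 and 45.4 CPM over Kdm6b-KO libraries. Its highest Kdm6b-KO library lay below its lowest Control library by a small margin (log2 fold change -0.35, SE 0.19, adjusted p = 0.414 by edgeR). Ifit2 had 43.6, 48.5 and 50.9 CPM over Control libraries and 32.4, 41.8 and 46.8 CPM over Kdm6b-KO libraries, and its groups overlapped (log2 fold change -0.24). Over the 4 genes the median log2 fold change was -0.61, the lowest of the 8 role groups.

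**Figure D2:**
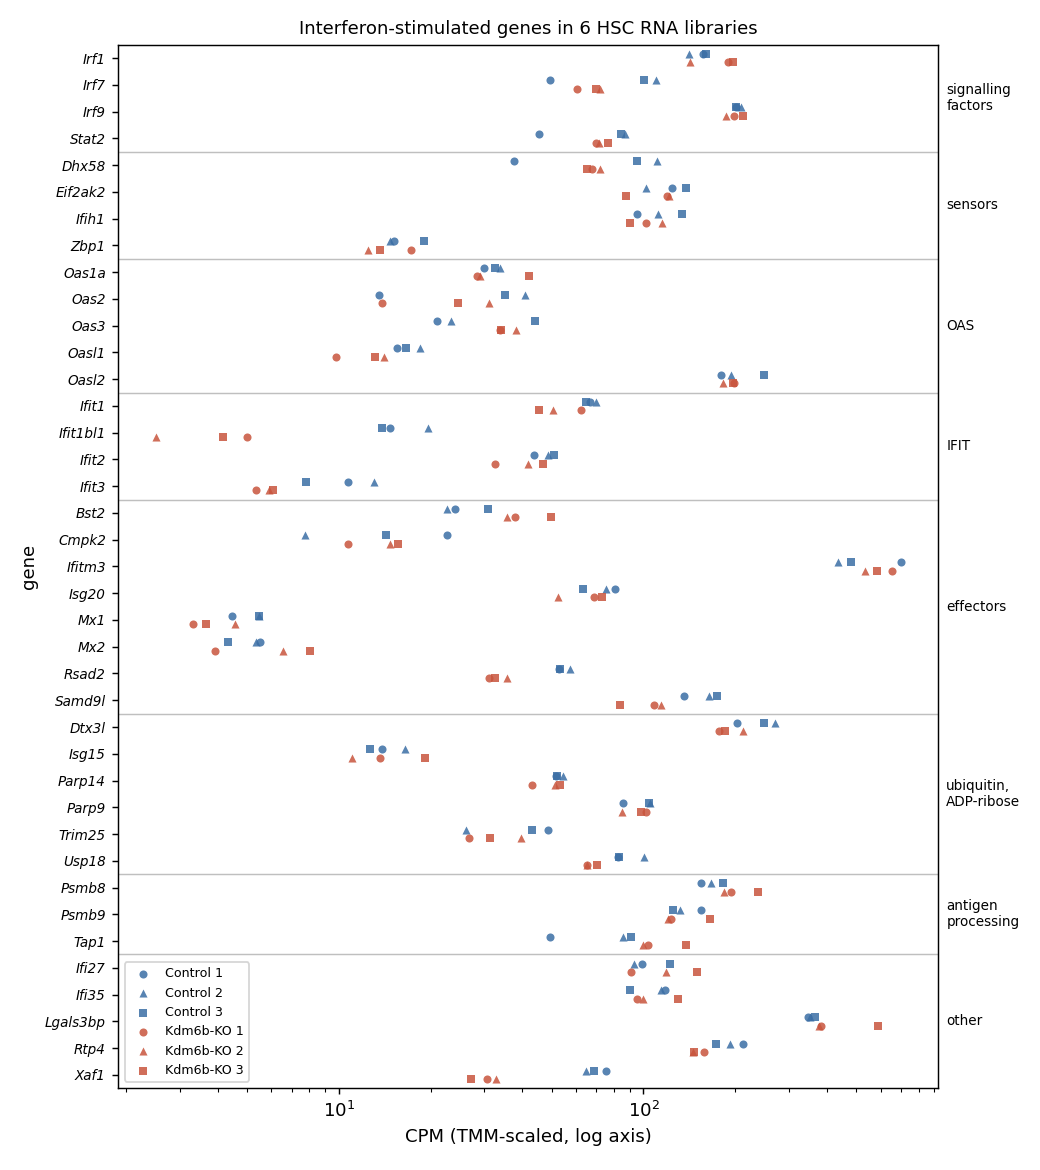
CPM (log axis) of the 39 interferon-stimulated genes in the 3 Control (blue) and 3 Kdm6b-KO (red) RNA libraries, 1 point per library, grouped by role. The groups stand apart for Xaf1, Ifit1bl1, Ifit3, Rsad2 and Samd9l below and for Bst2 and Tap1 above the Control libraries, and overlap for most others.

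Signalling factors did not pass the test. Stat2, a signal transducer of the type I receptor, had 45.5, 86.8 and 84.6 CPM over Control libraries and 70, 71.3 and 76.7 CPM over Kdm6b-KO libraries. Irf9, the DNA-binding partner of STAT2, had 201, 209 and 202 CPM over Control libraries and 198, 187 and 212 CPM over Kdm6b-KO libraries. Irf9 was nearly level across all 6 libraries, and Stat2 was low in Control replicate 1 only. Irf7, which amplifies interferon production, had 49.5, 109.9 and 100.2 CPM over Control libraries and 60.6, 71.8 and 69.7 CPM over Kdm6b-KO libraries (log2 fold change -0.36 with an adjusted p of 0.534 by edgeR). Irf1, a factor shared with the interferon gamma response, had 157, 141 and 161 CPM over Control libraries and 190.0, 142 and 197 CPM over Kdm6b-KO libraries (log2 fold change 0.21 with an adjusted p of 0.662 by edgeR). All 4 genes had overlapping groups.

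The nucleic acid sensors had log2 fold changes between -0.25 and -0.15, with none called. Ifih1, the MDA5 sensor of long double-stranded RNA, had 94.9, 112 and 134 CPM over Control libraries and 102, 115 and 90.1 CPM over Kdm6b-KO libraries. Dhx58, the LGP2 regulator of RNA helicase sensors, had 37.5, 111 and 95.1 CPM over Control libraries and 67.9, 72 and 65.1 CPM over Kdm6b-KO libraries. Control replicate 1 was the lowest of all 6 libraries for Dhx58, and the other 2 Control libraries were the highest. Zbp1, a sensor of Z-form nucleic acid that can trigger necroptosis, ranged from 12.4 to 19 CPM over the 6 libraries. Eif2ak2, the RNA-activated kinase PKR that halts translation, ranged from 87.9 to 138 CPM. Both had overlapping groups.

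The oligoadenylate synthetases make the messenger that activates RNase L, and the related Oasl1 lacks that activity. Oasl1, which in mouse restrains translation of Irf7, had 15.5, 18.4 and 16.6 CPM over Control libraries and 9.79, 14.1 and 13.2 CPM over Kdm6b-KO libraries. It was the only 1 of the 5 whose groups did not overlap, and it did not pass (log2 fold change -0.45, SE 0.27, adjusted p = 0.454 by edgeR). Oasl2 ranged from 180.3 to 249 CPM and Oas1a from 28.4 to 42.2 CPM. Oas2 had 13.5, 40.9 and 35.2 CPM over Control libraries and 13.8, 31.2 and 24.6 CPM over Kdm6b-KO libraries, and the first library of each group was the lowest. Oas3 had 21, 23.4 and 44.1 CPM over Control libraries and 33.8, 38.1 and 34.1 CPM over Kdm6b-KO libraries (log2 fold change 0.25 with an adjusted p of 0.707 by edgeR). Oas1a has near-identical copies in the mouse, so its counts are uncertain.

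Among the antiviral effectors, none was called, and 3 of 8 had an unadjusted p under 0.05 (37.5%, against 14.8% of all tested genes). Rsad2 encodes viperin, which makes a chain-terminating nucleotide. Its level was 52.7, 57.2 and 53.2 CPM over Control libraries and 31, 35.5 and 32.7 CPM over Kdm6b-KO libraries. Every Control library was above every Kdm6b-KO library (log2 fold change -0.72, SE 0.19, adjusted p = 0.120 by edgeR; DESeq2 called it at 0.0318, and the other 12 alternatives did not, up to 0.407). Samd9l, a translation inhibitor that restrains growth of blood stem and progenitor cells, had 136, 164 and 175 CPM over Control libraries and 108, 114 and 83.5 CPM over Kdm6b-KO libraries. Its groups did not overlap either (log2 fold change -0.64, SE 0.20, adjusted p = 0.164 by edgeR; called without Control replicate 1 at 0.0440, with a highest value of 0.491). Bst2, the tetherin that holds budding virus at the cell surface, went the other way with 24.1, 22.6 and 30.9 CPM over Control libraries and 37.8, 35.5 and 49.6 CPM over Kdm6b-KO libraries. All Kdm6b-KO libraries were above the Control libraries (log2 fold change 0.66, SE 0.23, adjusted p = 0.203 by edgeR, range 0.123 to 0.606).

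The other 5 effectors overlapped between the groups. Cmpk2, a mitochondrial nucleotide kinase that lies 12.7 kb from Rsad2 on chromosome 12, had 22.6, 7.75 and 14.3 CPM over Control libraries and 10.8, 14.7 and 15.6 CPM over Kdm6b-KO libraries (log2 fold change -0.11 with an adjusted p of 0.917 by edgeR), and its Control libraries spanned a 2.91-fold range. Ifitm3, which blocks fusion of virus with endosomes, had 699.9, 436 and 481 CPM over Control libraries and 655, 534 and 583 CPM over Kdm6b-KO libraries. Isg20, an exonuclease, ranged from 52.5 to 80.5 CPM. Mx1 and Mx2, dynamin-like GTPases, are annotated as transcribed pseudogenes in the C57BL/6J reference. They had 3.32 to 5.48 CPM for Mx1 and 3.93 to 8.06 CPM for Mx2, on 29 to 163 counts per library.

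Isg15, the ubiquitin-like protein attached to targets during an interferon response, had 13.8, 16.5 and 12.6 CPM over Control libraries and 13.6, 11 and 19.2 CPM over Kdm6b-KO libraries. Its groups overlapped (log2 fold change 0.04, SE 0.29, adjusted p = 0.969 by edgeR). Usp18, the protease that removes ISG15 and also dampens signalling at the type I receptor, had 82.2, 100.4 and 83.2 CPM over Control libraries and 65.4, 65.3 and 70.5 CPM over Kdm6b-KO libraries. Its Control libraries all lay above the Kdm6b-KO libraries, and it was not called (log2 fold change -0.40, SE 0.18, adjusted p = 0.324 by edgeR). Dtx3l, a ubiquitin ligase, and Parp9, its ADP-ribosylating partner, overlap on chromosome 16. Dtx3l had 203, 270.4 and 248 CPM over Control libraries and 177, 212 and 186 CPM over Kdm6b-KO libraries and Parp9 had 85.5, 105 and 105 CPM over Control libraries and 102, 85.2 and 98.3 CPM over Kdm6b-KO libraries. The groups overlapped for both, as they did for Parp14, at 43.0 to 54.4 CPM, and for Trim25, a ligase that acts on RIG-I, at 26.1 to 48.5 CPM.

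Antigen-processing genes had the highest median log2 fold change of the 8 role groups, 0.29, with none called. Tap1, a subunit of the peptide transporter, had 49.3, 85.9 and 90.8 CPM over Control libraries and 104, 100 and 138 CPM over Kdm6b-KO libraries. The 3 Kdm6b-KO libraries lay above the Control libraries, of which replicate 1 was low (log2 fold change 0.60, SE 0.24, adjusted p = 0.265 by edgeR, range 0.136 to 0.619). Psmb8, an inducible proteasome subunit, had 155, 167 and 183 CPM over Control libraries and 194, 184 and 238 CPM over Kdm6b-KO libraries, also with no overlap (log2 fold change 0.29 with an adjusted p of 0.505 by edgeR). Psmb9, another such subunit, had 154, 132 and 125 CPM over Control libraries and 123, 121 and 165 CPM over Kdm6b-KO libraries, which overlapped (log2 fold change -0.0040 with an adjusted p of 0.995 by edgeR). Psmb9 and Tap1 are transcribed away from each other with 225 bases between their annotated spans, and their promoter windows share 275 of 300 bases. The Tap1 window, shown because both genes start in it and chosen after the values were seen, has these 225 bases in capitals and holds no match to the response element core.
Tap1 (chr17:34187306-34187605, plus strand): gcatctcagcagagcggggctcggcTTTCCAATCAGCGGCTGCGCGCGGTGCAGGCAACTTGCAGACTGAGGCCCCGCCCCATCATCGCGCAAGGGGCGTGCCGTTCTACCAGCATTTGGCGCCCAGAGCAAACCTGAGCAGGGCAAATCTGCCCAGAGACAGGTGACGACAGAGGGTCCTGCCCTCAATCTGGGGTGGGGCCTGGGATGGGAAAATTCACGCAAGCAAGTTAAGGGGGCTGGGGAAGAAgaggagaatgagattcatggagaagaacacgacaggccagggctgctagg

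Of the remaining induced genes besides Xaf1, Rtp4, a receptor transporter protein, had 212, 192 and 174 CPM over Control libraries and 158, 145 and 147 CPM over Kdm6b-KO libraries. Its groups did not overlap, and it did not pass (log2 fold change -0.36, SE 0.18, adjusted p = 0.367 by edgeR). Lgals3bp, a secreted glycoprotein, had 348, 353 and 366 CPM over Control libraries and 383, 378 and 589.9 CPM over Kdm6b-KO libraries. Kdm6b-KO replicate 3 was far above the other 5 libraries, and the lowest Kdm6b-KO library was just above the highest Control library (log2 fold change 0.34 with an adjusted p of 0.493 by edgeR). Ifi27 ranged from 91.3 to 150.0 CPM and Ifi35 from 90.3 to 129.7 CPM, with overlapping groups.

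Control replicate 1 was the lowest Control library for 21 of 39 members (53.8%, against 39.1% of all tested genes), and it was under 0.7 of the lower of the other Control libraries for 5, namely Oas2, Stat2, Irf7, Dhx58 and Tap1. Those are 12.8% of the set, against 15.2% of all tested genes. By the same ratio it was above both other Control libraries for 2, Ifitm3 and Cmpk2, which is 5.13% against 12.5%. Kdm6b-KO replicate 3 was the highest Kdm6b-KO library for 19 members (48.7%, against 36.5% of all tested genes), Tap1, Psmb8, Psmb9, Bst2 and Lgals3bp among them. Relative to the mean of the 6 libraries, the median member was at 0.0010, 0.099 and 0.127 on the log2 scale in Control and at -0.141, -0.062 and 0.029 in Kdm6b-KO, so the libraries of the 2 groups overlapped.

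**Figure D3:**
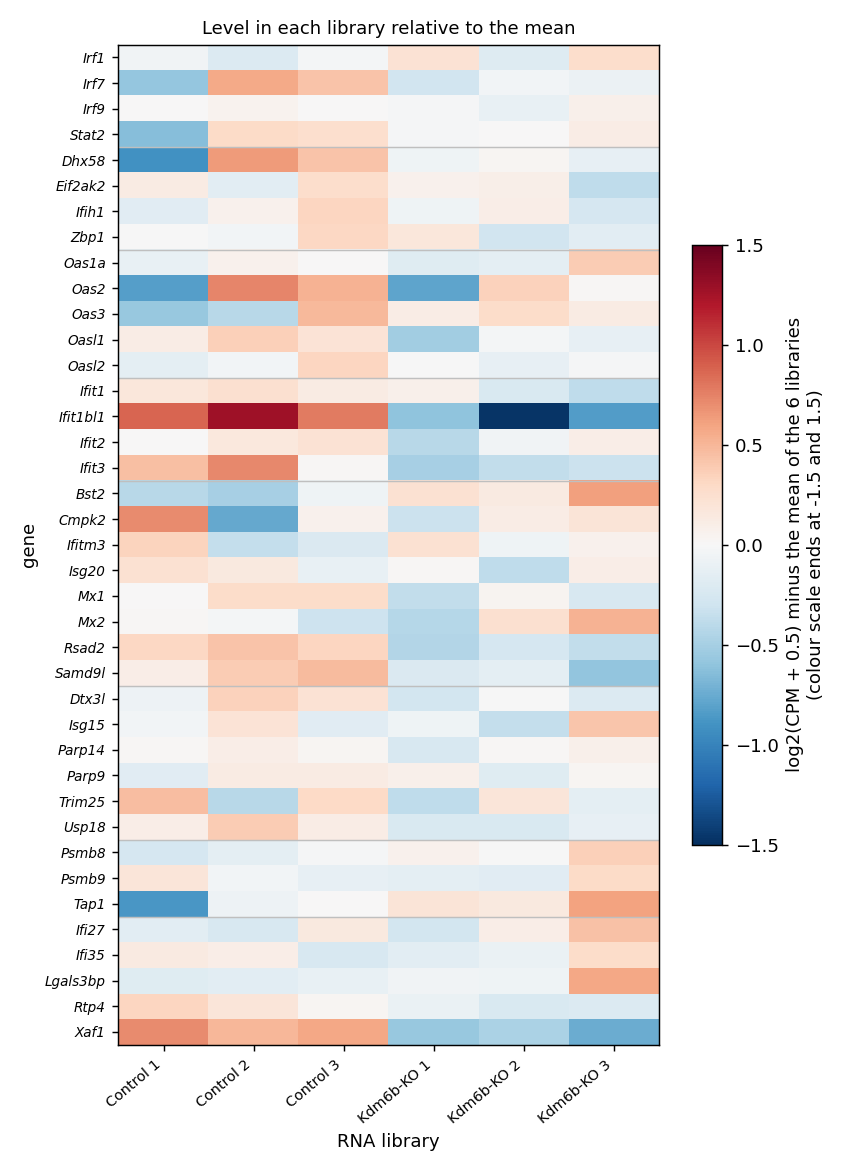
Level of each interferon-stimulated gene in each of the 6 RNA libraries, as log2(CPM + 0.5) minus its mean over the libraries (red above, blue below). Xaf1 and Ifit1bl1 split by group, while Oas2, Stat2, Irf7, Dhx58 and Tap1 are lowest or near lowest in Control replicate 1.

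Upstream of the set, the interferon genes themselves were near the detection limit. The 20 interferon ligand genes together held 0, 1 and 1 counts in the Control and 5, 5 and 11 counts in the Kdm6b-KO libraries, and none passed the filter. Receptors and kinases were measured for 9 of 10 genes, with 0 called. Jak1 had 686, 600.3 and 477 CPM over Control libraries and 383, 469.6 and 354 CPM over Kdm6b-KO libraries, with no overlap (log2 fold change -0.55, SE 0.22, adjusted p = 0.265 by edgeR). Ifngr1, the ligand-binding chain of the interferon gamma receptor, was level at 182 ± 15 CPM (Control mean) and 179 ± 25.6 CPM (Kdm6b-KO mean) (SD, n = 3 each). Ifnar1, the type I receptor chain, had a log2 fold change of 0.48 with an adjusted p of 0.311 by edgeR, and was chosen after its values were seen. None of the 7 measured negative regulators of signalling and none of the 11 measured genes that induce interferon was called, with medians of 0.095 and -0.0020. Their most abundant members were Ptpn6, at 360.4 ± 76.9 CPM (Control mean) and 385 ± 53.7 CPM (Kdm6b-KO mean), and Irf2, at 345 ± 34.8 CPM (Control mean) and 341 ± 28.3 CPM (Kdm6b-KO mean), in the former list, and Ddx58, the RIG-I sensor, at 169 ± 54.2 CPM (Control mean) and 127 ± 22.1 CPM (Kdm6b-KO mean), and Tbk1, a kinase that activates IRF3, at 156 ± 51.8 CPM (Control mean) and 130.3 ± 8.86 CPM (Kdm6b-KO mean), in the latter (SD, n = 3 each).

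Of 34 further interferon-induced genes outside the set, all were measured and 0 were called by edgeR, with a median log2 fold change of -0.040. At an unadjusted p under 0.05 there were 5, 4 lower and 1 higher, which is 14.7% against 14.8% of all tested genes. DESeq2 called 3 of the 72 genes with counts over all these lists, Ddx60 and Irgm2 lower and Socs3 higher. Over all genes it called 438 of 34366. Those genes were chosen after their values were seen. Irgm2, an immunity-related GTPase on chromosome 11, had 88, 131 and 111 CPM over Control libraries and 65.2, 54.6 and 60.9 CPM over Kdm6b-KO libraries (log2 fold change -0.87 with an adjusted p of 0.0734 by edgeR). Ddx60, a helicase that aids RNA sensing, had 128, 176 and 134 CPM over Control libraries and 88.7, 103 and 67.8 CPM over Kdm6b-KO libraries (log2 fold change -0.75 with an adjusted p of 0.128 by edgeR). Socs3, a feedback inhibitor of JAK kinases, lies on chromosome 11 like Irgm2 and Kdm6b. It had 1.08, 1.27 and 2.70 CPM over Control libraries and 3.58, 6.43 and 8.01 CPM over Kdm6b-KO libraries (log2 fold change 1.78 with an adjusted p of 0.121 by edgeR). In each of the 3 genes the groups did not overlap, as was so for 20.5% of all tested genes. The most abundant genes of this list, B2m and H2-K1 of the class I complex, had log2 fold changes of 0.06 with an adjusted p of 0.941 and -0.37 with an adjusted p of 0.604 by edgeR.

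The chromatin at these genes was described by the deposited ATAC peaks within 1 kb of either end of the annotated gene. Peaks numbered 47450, 44739 and 62125 in the Control libraries and 63682, 53692 and 69729 in the libraries titled 6bKO, at an unknown read depth. Such a peak was present at 30, 28 and 35 of the 39 genes in Control and at 31, 34 and 37 in the libraries titled 6bKO. For all 13435 tested genes with a position the shares were 72.8%, 76.2% and 82.3%, and 74.7%, 79.5% and 83.7%, against 76.9%, 71.8% and 89.7%, and 79.5%, 87.2% and 94.9% for the members. The members' count was thus largest in the library of each title with the most peaks. By peaks and by members the Control libraries had the same order, but the library titled 6bKO 1 had more peaks than 6bKO 2 and fewer members with a peak. No member had a peak in all 3 libraries of 1 title and in none of the other, a pattern found for 0.0744% (Control only) and 0.35% (6bKO only) of all genes.

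Peaks were found in all 6 libraries at 24 of 39 genes (61.5%, against 64.6% of all genes), in 1 to 5 libraries at 13, and in none at Oasl1 and Rtp4. The annotated span of Rtp4 runs from 23520219 to 23614222 and overlaps Masp1, and no promoter window was at hand for Rtp4. A peak at a start inside that span would not be counted, so the absence does not describe the Rtp4 promoter. The authors' fold enrichment of the strongest peak at Xaf1 was 10.9, 4.96 and 7.94 in the Control libraries and 19.3, 12.3 and 12.1 in the libraries titled 6bKO. That at Rsad2 was 10.3, 8.54 and 13 in the Control libraries and 12, 16.8 and 16.3 in the libraries titled 6bKO. Stat2 held some of the strongest peaks, at 10.8, 15.9 and 19 in the Control libraries and 11.7, 20.1 and 26.2 in the libraries titled 6bKO, which put it at the upper part of each list, with percentiles from 86.7 to 99.6. These values are each peak's own and are not compared between libraries.

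Peaks at the oligoadenylate synthetase family varied between libraries. Oas1a and Oas2 had a peak in Control replicate 3 and in the libraries titled 6bKO 1 and 3, Oas3 in those and in 6bKO 2, and Oasl1 in none. Oasl2 had a peak in all 3 Control libraries and in those titled 6bKO 2 and 3. Isg15 and Parp14 had a peak in the libraries titled 6bKO 2 and 3, and in no Control library. At Isg15 these stood at a fold enrichment of 3.95 and 3.61, at percentiles 6.74 and 2.42 of their lists, near the weak end. Irf7 and Ifit1bl1 had peaks within 1 kb of a gene end in 2 of 3 libraries of each title. A further peak inside Irf7, beyond that limit and so not counted, was present in all 6 libraries. Its summits lay 1166 to 1196 bases downstream of the Irf7 start. The peaks near Ifit1bl1 lay within 1 kb of position 34662981, which is the upstream end of its annotated span, as the gene is on the minus strand. Their summits were 60181 to 60475 bases from the nearest of the 2 starts with a promoter window. Those promoter windows themselves met a peak in Control replicate 1 alone. Ifitm3 had peaks near a gene end in all 6 libraries, and the summit of the strongest in each lay 1506 to 2314 bases from its start. Its promoter window met a peak in the library titled 6bKO 2, with a summit 4 bases from the start.

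**Figure D4:**
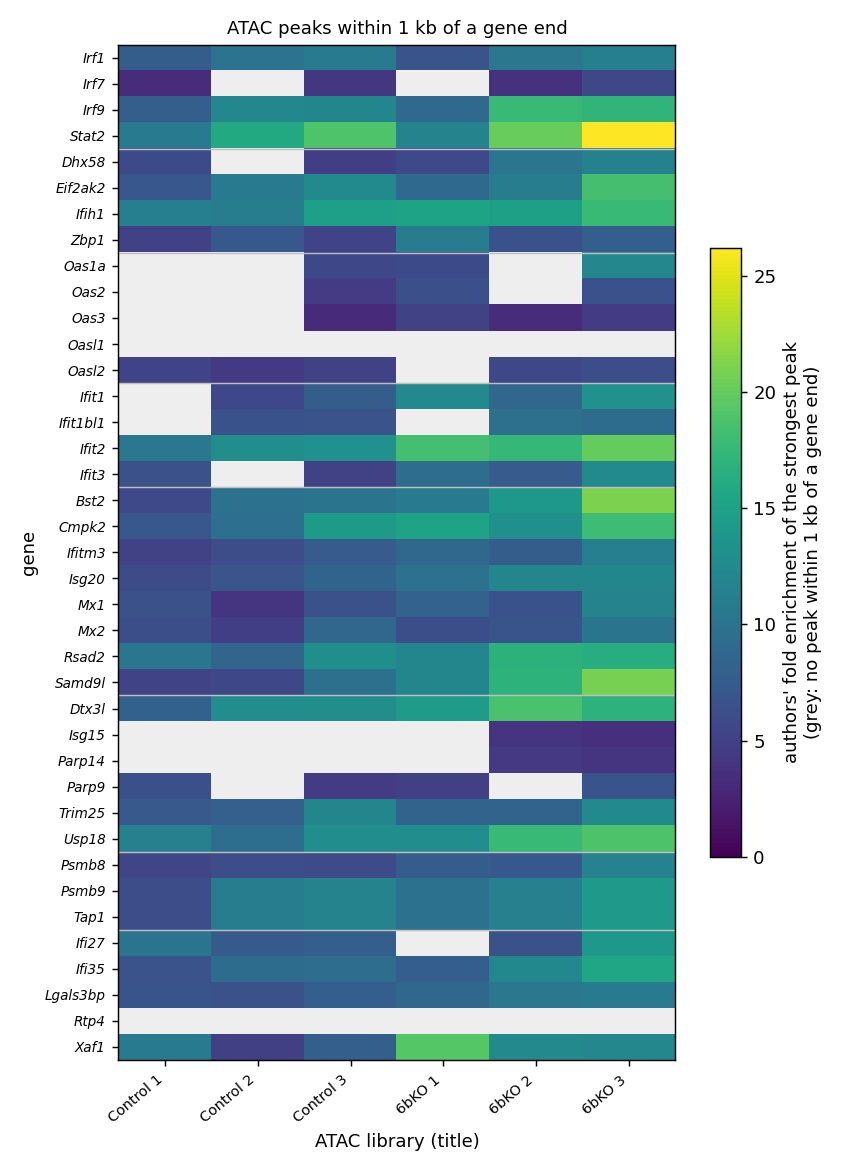
Authors' fold enrichment of the strongest ATAC peak within 1 kb of a gene end, for the 39 interferon-stimulated genes in 3 Control and 3 6bKO-titled libraries; grey cells have no such peak. Such peaks are present in all 6 libraries at 24 genes, and Oasl1 and Rtp4 have none within 1 kb of a gene end.

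In the windows printed above, the Rsad2 and Bst2 promoters met a peak in all 6 libraries, and those of Ifit1 and Ifit3 in 5. Of the 12 genes with the motif, 5 had a peak over the window in all 6 libraries, namely Bst2, Eif2ak2, Ifih1, Rsad2 and Stat2. Of the 17 genes without it, 12 did. The summits at Ifit1 lay 84 to 106 bases upstream of the start, where its matches begin 104 and 85 bases upstream. The median log2 fold change was -0.072 for the 12 genes with the motif, 6 of them negative, and -0.111 for the 17 without, 12 of them negative.

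**Figure D5:**
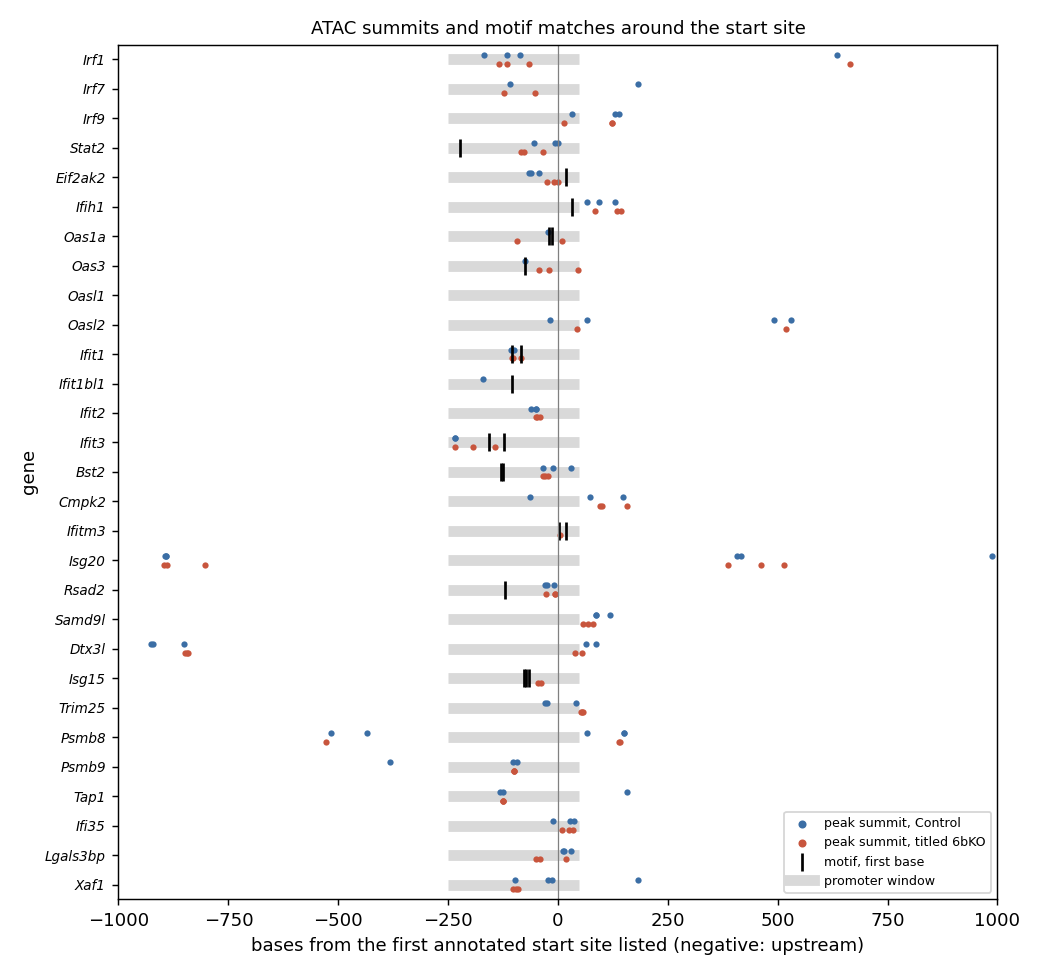
Summits of ATAC peaks (blue, Control; red, titled 6bKO; 1 point per peak and library) and the first base of each match to the response element core (black ticks) relative to the first listed start site of the 29 genes with a RefSeq window, in bases, with the searched window in grey. At Ifit1 the summits lie within a few bases of the matches, at Rsad2 they lie between the match and the start, and Oasl1 has no peak.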

How the data were processed

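Raw read counts per Ensembl gene were deposited by the authors, 1 file per RNA library. The build was mm10, and Partek 6.6, HTSeq 0.8.0, featureCounts 1.4.5 (Subread) and STAR 2.0.4 are named without roles, per the submitters' processing notes. Neither annotation release nor strand setting is given in the sources used. The closing lines of unassigned reads were left out; 16.46% to 19.73% of reads were assigned to genes. The deposited ATAC peak lists, 1 per library (cutadapt 1.16, BWA 0.7.16a and MACS2, per the submitters' processing notes), give a fold enrichment ratio and p and q as −log10 values, with a smallest −log10 q of 2.00.

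The test was that of edgeR 4.0.16 under R 4.3.3 (filterByExpr, TMM, robust glmQLFit, glmQLFTest on genotype, two-sided, Benjamini-Hochberg over 15185 genes); CPM use TMM-scaled sizes, and the SE is the log2 fold change over the square root of F. DESeq2 1.42.0 and limma 3.58.1 were alternatives. In 2 simulated draws of 15185 genes, 25 and 28 of 100 genes changed by 1 on the log2 scale and 76 and 80 of 100 changed by 2 were called, with 6 and 11 unchanged genes. Replicates differed by a chi-square of 14.75 or more per degree of freedom, so none was a duplicate. No molecular identifiers are described in the sources used. Of 49671 IDs, 49326 matched a symbol. Positions and promoter windows came from RefSeq tables of GRCm38.p6, the assembly of mm10. Genes to name were all 39 members, the called or 2 most abundant genes of each pathway list, and Kdm6b; genes outside this rule are marked in the text as chosen after their values were seen. Members and lists were chosen with earlier results of these data known, Ifit1bl1 and Rsad2 among them, so their counts are no independent support. A result for another gene is not reported here.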

Additional observations from a re-analysis of the deposited data

How the results depend on the processing

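The count of 2 called members was 2 under RLE factors, library totals, no filter, a mean of at least 1 CPM, limma-voom and the replicate block, and 3 with DESeq2, each time all lower. With 1 library left out it ranged from 0 to 3. It was 0 without Kdm6b-KO replicate 2 or 3, 1 without Control replicate 2 and 3 without Control replicate 1. The median log2 fold change of the members ranged from -0.168 to -0.097 with 1 library left out and was -0.0050 under library totals. Over all genes, the 70 calls became 576 with no filter, 438 with DESeq2, 42 with limma-voom, 100 under library totals (70 higher and 30 lower, against 37 and 33) and 20 to 519 with 1 library left out, the extremes without Kdm6b-KO replicate 3 and Control replicate 1. The pathway lists had 2 calls with no filter, 3 with DESeq2 and 0 to 3 with 1 library left out. The cause of these differences was not tested.

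Replicate numbers did not pair the RNA samples: same-numbered libraries deviated with correlations of 0.0585, 0.175 and -0.103. With the replicate block 88 genes were called over all genes, 2 of them members, the median of the members was -0.124, and 0 pathway genes were called.

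Of 273 member values under alternatives that kept all libraries, 262 stayed on their side, 1 gained a call (Rsad2) and 10 changed sign, all of uncalled genes near 0. RLE factors gave -0.00840 for Stat2, -0.000400 for Ifi35. Library totals gave 0.0318 for Oasl2, 0.113 for Irf9, 0.100 for Parp9, 0.0552 for Parp14, 0.0225 for Cmpk2, 0.144 for Psmb9. Kdm6b, which is not a member, also changed sign under library totals, to 0.00920. Limma-voom gave 0.0261 for Cmpk2. No filter on low counts gave 0.0368 for Psmb9. With 1 library left out, Kdm6b ranged from -0.49 to 0.19. With 1 library left out, log2 fold changes that changed sign ranged from -0.22 to 0.21 for Isg15, -0.16 to 0.16 for Oas1a, -0.20 to 0.0426 for Oasl2, -0.24 to 0.15 for Stat2, -0.0854 to 0.0101 for Irf9, -0.14 to 0.10 for Ifi35, -0.59 to 0.0327 for Dhx58, -0.14 to 0.0275 for Parp9, -0.41 to 0.31 for Cmpk2, -0.17 to 0.0932 for Psmb9.

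Members with an ATAC peak averaged 31 in Control and 34 in the libraries titled 6bKO. With a window of 0 bp they averaged 24.7 and 29, and with 5 kb 36.7 and 37.7; with 1 library left out 29 to 32.5 and 32.5 to 35.5. A −log10 q or fold enrichment of at least 5 moved the means by less than the spread between libraries. ATAC depth is unknown, and with 3 libraries a group small differences in RNA were not detectable.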

Other observations

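The promoter windows of the interferon-stimulated genes were not unusual in base composition. The median share of G and C was 51.8% in the 12 genes with the response element core and 55.0% in the 17 without it, beside 52.7% over all 27025 genes with a window. The 17 genes whose window met a peak in all 6 ATAC libraries had a median of 55.0%, and the 12 others one of 51.8%, with ranges of 41.7% to 69.3% and 38.7% to 55.3%.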
